A study of Mus musculus with 12 samples.

Results

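The 9 genes described here, Skil, Ski, Pmepa1, Tgif1, Tgif2, Tgfbi, Smurf1, Smurf2 and Ldlrad4, were taken by name as direct targets and feedback regulators of transforming growth factor β (TGFβ) signaling, and are 9 of the 24906 genes listed in each deposited expression table. They were measured by RNA-Seq in 12 libraries of mouse tumor organoids, which are clusters of epithelial cells grown from tumor tissue in culture. All 12 libraries came from organoids labelled small intestine with the genotype Smad4KO;BRAFV600E/+;pINDUCER-SMAD4. They therefore share the loss of SMAD4, 1 activated BRAF allele and a lentivirus from which SMAD4 is switched on by doxycycline (dox). Per the methods of the study, recombination was driven in the intestinal epithelium by Villin-CreERT2 after tamoxifen, and transduced organoids were selected with puromycin. The age of the source animals at tumor collection was not used here. In BME, a gel of basement membrane proteins in which organoids grow in 3D, there were 3 untreated libraries (lines 682, 700 and 889) and 2 libraries given 4 µg/mL dox (lines 700 and 889). The sixth BME library, of line 682, is labelled as dox with the word mock, while its title and genotype read as an induced library. The methods name a mock plasmid, and which plasmid this library carried was not settled here. It was kept in the control arm, as the 4 vehicle and 2 dox libraries of the study imply, and its values are given apart. Organoids seeded directly on plastic gave 3 untreated and 3 dox libraries (lines 560, 700 and 889). All were collected after 48 h. The lines are bulk cultures, so fewer cells of a type and less RNA per cell cannot be told apart.

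TGFβ binds a pair of receptor kinases that phosphorylate SMAD2 and SMAD3, which join SMAD4 and enter the nucleus to regulate genes. Many of the first genes to respond are brakes on the pathway. SKI and SKIL (SnoN) are corepressors that bind SMAD complexes, TGIF1 and TGIF2 are homeodomain corepressors that recruit histone deacetylases, PMEPA1 and LDLRAD4 are membrane proteins that keep SMAD2 and SMAD3 from the receptor, and SMURF1 and SMURF2 are ubiquitin ligases that mark receptors and SMADs for degradation. TGFBI is a secreted matrix protein, not a brake, that was named for its induction by TGFβ. SMAD3 and SMAD4 bind the sequence CAGAC, and SMAD complexes also bind GC-rich GGCGC elements. The comparisons below ask which of these genes differed once SMAD4 was expressed, and whether this depended on the matrix.

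Positions are given in the mouse build NCBIM37, which corresponds to the mm9 build named in the submitters' processing notes. Skil is at chr3:30993980-31021499, Ski at chr4:154528184-154596701, Pmepa1 at chr2:173049959-173102034 and Tgif1 at chr17:71193545-71202886. Tgif2 is at chr2:156665813-156681306, where it overlaps a long noncoding RNA gene, 5430405H02Rik, on the other strand. Whether reads in the overlap were assigned by strand is not given in the sources used here. Tgfbi is at chr13:56710920-56740923, Smurf1 at chr5:145637364-145726716 and Smurf2 at chr11:106681380-106782029. Promoter windows from RefSeq (build GRCm38.p6, 250 bases before to 50 after the start site) were used for 6 of the 9 genes, in 10 windows. Skil, Pmepa1 and Ldlrad4 are not among them, so their promoters were not examined. The 2 shown are Tgfbi, which was lower by at least 0.5 on a log2 scale in both BME dox pairs, and Smurf2, whose libraries separated by treatment on plastic. Capitals mark CAGAC or its complement GTCTG.
Tgfbi, chr13:56609336-56609635, plus strand: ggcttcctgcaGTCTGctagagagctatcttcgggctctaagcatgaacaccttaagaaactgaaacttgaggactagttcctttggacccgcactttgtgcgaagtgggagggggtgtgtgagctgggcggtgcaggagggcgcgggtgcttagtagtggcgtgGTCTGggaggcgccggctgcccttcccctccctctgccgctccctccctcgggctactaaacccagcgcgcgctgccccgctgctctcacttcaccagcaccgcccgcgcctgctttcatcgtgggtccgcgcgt
Smurf2, chr11:106920666-106920965, minus strand: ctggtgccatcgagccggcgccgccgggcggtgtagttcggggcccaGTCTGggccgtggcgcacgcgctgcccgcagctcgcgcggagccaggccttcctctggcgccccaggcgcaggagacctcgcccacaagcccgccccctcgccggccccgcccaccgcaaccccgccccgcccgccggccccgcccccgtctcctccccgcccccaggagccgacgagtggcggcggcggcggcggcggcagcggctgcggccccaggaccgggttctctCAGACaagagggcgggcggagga
The Tgfbi window holds 2 matches, which begin at -239 and -85 from the start site, and the Smurf2 window holds 2, at -203 and 28. CAGAC on either strand occurs in 49.6% of all 32851 windows of this length, so a match is common. GGCGC on either strand, which was found 4 times in the Tgfbi window and 6 times in the Smurf2 window, occurs in 36.9% of all windows. The 8-base palindrome GTCTAGAC, a joined SMAD element that was in none of the 10 windows of these 6 genes, occurs in 0.213%. The windows of Ski, Tgif2 and 2 of 5 of Tgif1 held no CAGAC.

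Expression was given as FPKM, fragments per kilobase adjusted to each library's total, and the depth read from the steps between low values was about 12800000 to 15800000 reads for each BME library and about 15500000 to 20500000 for each plastic library. Each library had from 15723 to 16805 genes above 0. The induced gene itself, Smad4, measured 17.2 and 27.3 FPKM in the BME dox libraries of lines 700 and 889, against 6.53 and 6.23 in the same lines untreated. The mock library of line 682 held 10.3 FPKM, next to 8.88 in the untreated library of that line. On plastic it went from 1.54 to 73.6 FPKM in line 560, from 2.99 to 18.1 in line 700 and from 4.76 to 48.9 in line 889. Reads from the construct and from what remains of the deleted gene cannot be told apart in these totals. All 8 epithelial markers, Epcam, Cdh1, Vil1, Cdx2, Krt8, Krt18, Krt19 and Krt20, were present in every arm. Their summed level ranged from 3902 to 4881 FPKM in untreated BME organoids, was 4602 in the mock library and was 7516 and 9534 with dox, while on plastic the range was 13022 to 14203 untreated and 11679 to 17189 with dox. The 7 fibroblast markers summed to at most 5.79 FPKM, the 6 immune markers to at most 1.81 and the 4 endothelial markers to at most 3.65, with the macrophage marker Adgre1 at 0 in all libraries. The untreated plastic library of line 560 stood somewhat apart. Of the 12333 genes tested on plastic, 11.7% were at least 2-fold lower in it than in each of the other untreated libraries, Skil among them, against 5.47% for line 700 and 4.16% for line 889, and 9.05% were at least 2-fold higher, against 2.9% and 1.48%. The plastic limma changes of Skil, Smurf2 and Ldlrad4 are given without it below. For some other genes the change in each line is given instead. The epithelial sum was higher with dox in BME, and the part of this in the results was not tested.

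In untreated organoids the 9 genes covered a wide range of levels. In BME the order of mean FPKM (± SD, n = 3) was Tgif1 at 111 ± 8.33, Pmepa1 at 26.4 ± 9.78, Ski at 22.7 ± 7.60, Smurf2 at 15.7 ± 1.15, Smurf1 at 11.9 ± 1.63, Skil at 8.69 ± 2.02, Tgif2 at 6.64 ± 2.84, Tgfbi at 5.10 ± 2.92 and Ldlrad4 at 2.85 ± 1.01. Pmepa1 and Ski did not differ beyond their spread, and neither did any neighbours from Skil down to Ldlrad4. On plastic the order (± SD, n = 3) was Tgif1 at 178 ± 21.6, Pmepa1 at 118 ± 23.7, Smurf1 at 30.6 ± 8.35, Ski at 19.3 ± 6.04, Smurf2 at 13.2 ± 3.12, Skil at 5.72 ± 2.53, Ldlrad4 at 4.60 ± 1.40, Tgif2 at 0.932 ± 0.753 and Tgfbi at 0.128 ± 0.221. There, Skil and Ldlrad4 were the only neighbours within their spread. Since each table was normalized on its own, levels were not tested between environments, but the place of a gene within its table can be set side by side. Untreated Pmepa1 lay between the percentiles 65.3 and 80.1 of the tested genes in BME and between 92.0 and 95.5 on plastic. Untreated Smurf1 lay between 48.4 and 54.5 in BME and between 69.8 and 82.1 on plastic. Tgif2 was lower on plastic, between 5.68 and 17.2, than in BME, between 23.6 and 43.7, and Tgfbi on plastic was listed at 0 in 3 of 6 libraries.

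**Figure D1:**
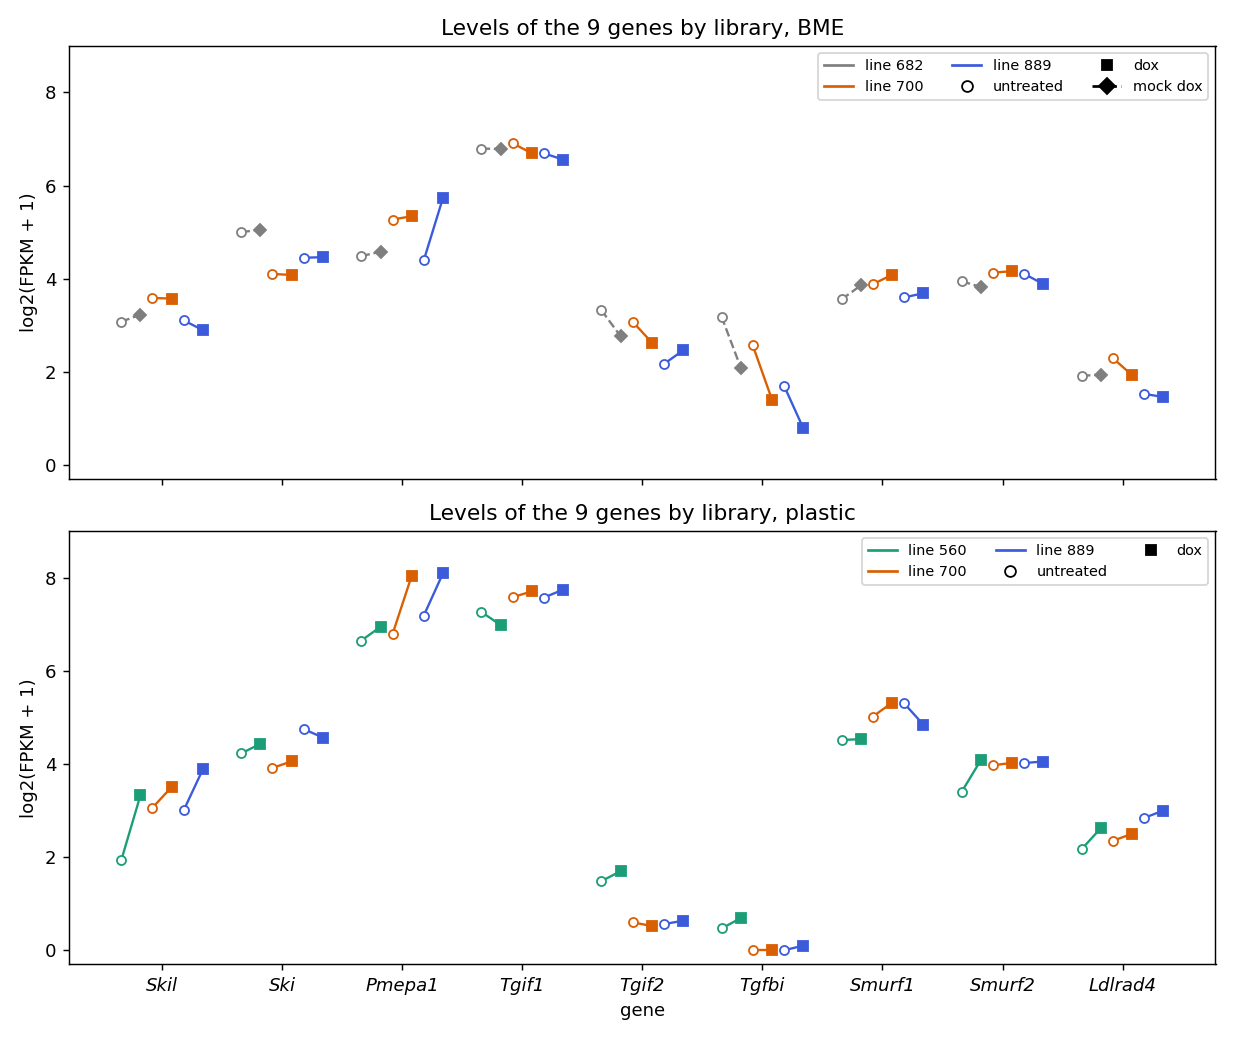
Levels of the 9 genes as log2(FPKM + 1) in each library in BME (top) and on plastic (bottom), with a line joining the untreated (open circle) and treated (square, or diamond for mock) library of the same organoid line. Skil and Pmepa1 are higher with dox in all 3 plastic lines, and Tgfbi is lower with dox and in the mock library in BME and close to 0 on plastic.

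Skil was higher with dox in all 3 lines on plastic and slightly lower in both lines in BME. In BME it went from 11.0 FPKM untreated to 10.9 with dox in line 700 and from 7.62 to 6.44 in line 889, and in the mock pair of line 682 from 7.44 to 8.39. On plastic it went from 2.81 to 9.03 in line 560, from 7.34 to 10.4 in line 700 and from 7.02 to 13.8 in line 889. All 3 dox libraries on plastic were above all 3 untreated libraries, whereas in BME 1 dox library was below all 4 controls and the other was below only the untreated library of its own line. On the log2(FPKM + 1) scale, which is used for every change below and understates that of low genes, the mean pair change was 0.91 ± 0.48 (SD, n = 3 pairs) on plastic and -0.11 ± 0.14 (SD, n = 2 pairs) in BME. In limma the plastic change of 0.91 (SE 0.36, 95% interval 0.05 to 1.76) had an unadjusted p of 0.0402 and an adjusted p of 0.586, and so did not pass over all genes tested. It was 0.54 without the untreated library of line 560, which held the lowest Skil level. The BME change of -0.02 (SE 0.25) had a 95% interval of -0.62 to 0.59, so a change of either sign within those bounds remained possible at this number of libraries.

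Ski, the paralogous corepressor, had similar values with and without dox in each line. In BME it was at 16.2 FPKM untreated and 15.9 with dox in line 700, at 20.9 and 21.1 in line 889, and at 31.1 and 32.2 in the mock pair. On plastic it was at 17.8 and 20.6 in line 560, 14.1 and 15.6 in line 700, and 25.9 and 22.7 in line 889. The pair change was -0.01 ± 0.03 (SD, n = 2 pairs) in BME and 0.05 ± 0.21 (SD, n = 3 pairs) on plastic. The limma change in BME, -0.38, compared arms with different lines and had a 95% interval of -1.13 to 0.37 (limma adjusted p 0.959), and it ran from -0.57 to -0.19 when 1 library was left out.

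Pmepa1, which sequesters receptor-regulated SMADs, was the single gene of the list with a higher level in all 5 dox pairs. This held for 1 of the 8 genes tested in both tables, and for 8.7% of all genes tested in both. The BME levels were 37.6 FPKM untreated and 39.6 with dox in line 700, 20.1 and 52.3 in line 889, and 21.4 and 22.9 in the mock pair. On plastic it went from 99.5 to 122 in line 560, from 110 to 264 in line 700 and from 145 to 273 in line 889. The size of the difference varied among lines, since line 700 had the smallest pair change in BME, 0.07, and the largest on plastic, 1.26. In line 889 the changes were 1.34 in BME and 0.91 on plastic. Both BME dox libraries were above all 4 controls, but the dox library of line 700 was only just above its own untreated library, and on plastic the dox library of line 560 was below the untreated library of line 889. The limma change was 0.86 in BME (SE 0.28, unadjusted p 0.0213, adjusted p 0.959) and 0.82 on plastic (SE 0.36, unadjusted p 0.0575, adjusted p 0.613). Line 560, which had the largest Smad4 change of all pairs, 4.88, had the largest Skil change, 1.40, and the smallest Pmepa1 change on plastic, 0.30. Its untreated library, which stood apart as described above, held the lowest Smad4 and Skil levels on plastic. A relation between these changes was not tested.

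Ldlrad4, a relative of Pmepa1 with the same role, is annotated as D18Ertd653e at chr18:68092911-68415203 and was expressed at lower levels. In BME it went from 3.90 to 2.80 FPKM in line 700, from 1.88 to 1.75 in line 889 and, in the mock pair, from 2.77 to 2.84. On plastic it went from 3.51 to 5.18 in line 560, from 4.11 to 4.67 in line 700 and from 6.18 to 7.0 in line 889. Like Skil, it was lower in both BME dox pairs and higher in all 3 plastic dox pairs, but treated and untreated libraries overlapped in both environments. Its limma changes were -0.23 (95% interval -0.87 to 0.42, adjusted p 0.963) and 0.25 (95% interval -0.37 to 0.88, adjusted p 0.854), and the latter ran from 0.11 to 0.45 when 1 library was left out. Without the untreated library of line 560 the plastic change was also 0.11.

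Of the homeodomain corepressors, Tgif1 was the most abundant of the 9 genes and had changes of both signs on plastic. In BME it was at 119 FPKM untreated and 103 with dox in line 700, 102 and 93.4 in line 889, and 110 and 109 in the mock pair. On plastic it was at 153 and 126 in line 560, 191 and 208 in line 700, and 190 and 213 in line 889. The limma change was -0.17 in BME (95% interval -0.48 to 0.14) and 0.01 on plastic (95% interval -0.63 to 0.64), with adjusted p 0.959 and 0.997. Among the 9 genes its BME interval was the narrowest. The pair changes of Tgif2 had both signs in each environment. In BME it went from 7.44 to 5.18 FPKM in line 700, from 3.50 to 4.51 in line 889, and from 9.0 to 5.79 in the mock pair, where its change of -0.56 was larger in size than that of either dox pair. On plastic it was at 1.80 and 2.25 in line 560, 0.517 and 0.434 in line 700, and 0.477 and 0.552 in line 889. Treated and untreated libraries overlapped in both environments, and the limma changes were -0.29 (SE 0.33) in BME and 0.07 (SE 0.42) on plastic. The BME change was -0.08 with the line as a replicate block and ran from -0.51 to -0.12 when 1 library was left out, the latter without the untreated library of line 682.

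The SMURF ligases showed small differences. Smurf1 in BME went from 13.8 to 16.0 FPKM in line 700, from 11.1 to 11.9 in line 889, and from 10.8 to 13.5 in the mock pair, so the largest of the 3 changes, 0.30, was in the mock pair. On plastic it went from 21.9 to 22.2 in line 560, from 31.4 to 38.9 in line 700 and from 38.5 to 27.8 in line 889. Directions differed among the plastic lines, and the limma changes were 0.16 (95% interval -0.28 to 0.61) in BME and -0.05 (95% interval -0.76 to 0.66) on plastic. Smurf2 in BME went from 16.5 to 16.9 FPKM in line 700, from 16.2 to 13.8 in line 889 and from 14.4 to 13.2 in the mock pair. On plastic it went from 9.58 to 16.0 in line 560, from 14.7 to 15.3 in line 700 and from 15.2 to 15.6 in line 889. The plastic dox libraries were above the untreated libraries, yet by little outside line 560, where the untreated level was low. The pair changes were 0.68, 0.05 and 0.03, and the limma change on plastic was 0.26 (SE 0.22, adjusted p 0.823), or 0.06 without the untreated library of line 560.

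Tgfbi, despite its name, was lower with dox in BME. It was at 4.94 FPKM untreated and 1.65 with dox in line 700, and at 2.26 and 0.734 in line 889. In line 682 it went from 8.10 FPKM untreated to 3.26 in the mock library, in which Smad4 was 10.3 FPKM against 8.88. The changes in the dox pairs were -1.17 and -0.91 and that in the mock pair -1.09. As ratios of FPKM, treated over untreated, they were 0.334 and 0.325 with dox and 0.403 in the mock pair, a smaller decrease. Smad4 differed by 1.28 and 1.97 in the dox pairs and by 0.19 in the mock pair. Both dox libraries were below all 4 controls. The limma change was -1.29 (SE 0.44, 95% interval -2.34 to -0.24), with an unadjusted p of 0.0239 and an adjusted p of 0.959. The mock library counts as a control in that test. With 1 mock library there is no replicate of its value. Of all genes tested in BME, 0.623% were lower by at least 0.5 in both dox pairs and in the mock pair. On plastic Tgfbi was at 0.383 and 0.615 FPKM in line 560, listed at 0 in both libraries of line 700, and at 0 and 0.0709 in line 889. These values rest on about 37 reads or fewer per library and were under the filter, a mean of 0.5 FPKM over the 6 libraries, so Tgfbi was not tested on plastic and its difference between environments was not tested.

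**Figure D2:**
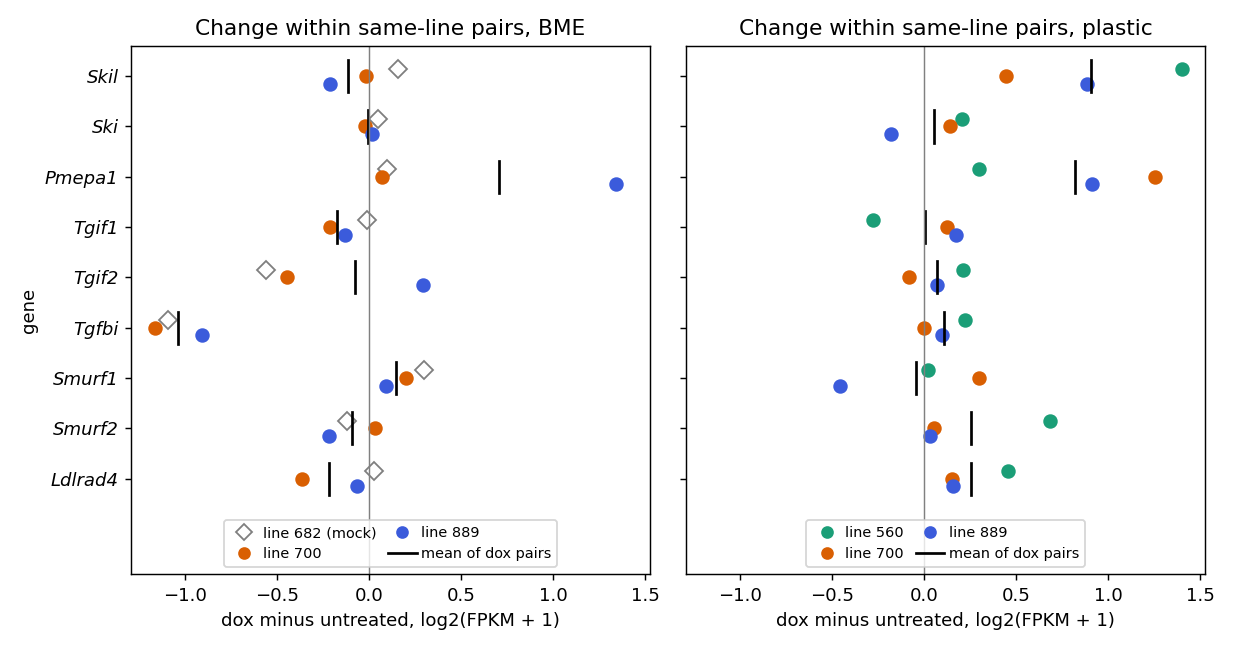
Change within each same-line pair, treated minus untreated, in log2(FPKM + 1), for the 9 genes in BME (left) and on plastic (right), where filled points are dox pairs, open diamonds the mock pair and black bars the mean of the dox pairs. On this scale, though not as a ratio of FPKM, Tgfbi in the mock pair (-1.09) lies between both dox pairs. Pmepa1 in the mock pair (0.09) lies close to line 700 (0.07) and far from line 889 (1.34).

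Taking the 9 genes as a list, limma called 0 of 9 in BME and 0 of 8 on plastic (adjusted p under 0.05, change over 1 in size), where 0.0231% of all 12996 genes tested in BME (3 genes) and 0.0324% of all 12333 on plastic (4 genes) were called. With the line as a replicate block these counts over all genes were 0 and 7. At an unadjusted p under 0.05, 1 of 9 was higher in BME (Pmepa1, background 2.62%) and 1 lower (Tgfbi, background 1.47%), and on plastic 1 of 8 was higher (Skil, background 4.56%) and 0 lower (background 3.73%). With the line as a replicate block, Pmepa1 no longer met this in BME (limma unadjusted p 0.0710), where 0 of 9 were higher (background 4.38%) and Tgfbi alone lower (background 3.03%), while on plastic it did (p 0.0227), so that 2 of 8, Skil and Pmepa1, were higher there (background 7.44%). By pairs, 0 of 9 were higher by at least 0.5 in both BME dox pairs (background 2.09%) and 1, Tgfbi, was lower (background 1.18%). On plastic 0 of 8 reached 0.5 in all 3 pairs in either direction (background 3.02% higher and 2.38% lower). Skil missed it through line 700, at 0.45, and Pmepa1 through line 560, at 0.30. Treated and control libraries did not overlap for Pmepa1 (higher, background 6.33%) and Tgfbi (lower, background 5.83%) in BME and for Skil and Smurf2 on plastic (higher, background 7.87%), where 0 of 8 were lower without overlap (background 7.26%). The median limma change of the genes tested was -0.17 in BME and 0.16 on plastic, against -0.01 and 0.01 over all genes. By mean dox pair change, which keeps to the same lines, the median was -0.095 in BME and 0.16 on plastic.

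The dox change was then compared between environments as an interaction in limma, over 11977 genes tested in both tables. None of the 8 genes passed, nor did any gene (background 0%), and at an unadjusted p under 0.05 the counts were 0 of 8 higher (background 1.3%) and 0 of 8 lower on plastic (background 1.23%). The largest difference was that of Skil, whose change was 0.92 higher on plastic than in BME (SE 0.46, 95% interval -0.10 to 1.95, unadjusted p 0.0717, adjusted p 1.00). Lines 700 and 889 were measured in both environments, and over these lines alone the Skil difference was 0.78 (95% interval -0.24 to 1.79). With the line as a replicate block it was 1.02 (limma unadjusted p 0.0125, adjusted p 0.877), and Skil was then 1 of 8 higher at an unadjusted p under 0.05 (background 2.96%). Without the plastic untreated library of line 560 the Skil difference was 0.56, and without the BME dox library of line 889 it was 0.59. Ldlrad4 differed by 0.48 (95% interval -0.35 to 1.31), or 0.25 without the BME dox library of line 889, Ski by 0.44 (95% interval -0.52 to 1.39) and Tgif2 by 0.35 (95% interval -0.90 to 1.61). With the line as a replicate block the Ski difference was 0.060 and that of Tgif2 0.14, and leaving out 1 library gave 0.24 to 0.66 for Ski. The Pmepa1 changes were close to each other, with a difference of -0.04, but its 95% interval of -1.10 to 1.03 would hold a difference of either sign. A pattern of lower values in both BME dox pairs and higher values in all 3 plastic pairs was met by 2 of 8 genes, Skil and Ldlrad4, and by 2.61% of all genes tested in both tables. The opposite pattern was met by 0 of 8, against 2.25% of all. The change of Smad4 itself was unequal, 1.28 and 1.97 in the BME pairs against 2.26 to 4.88 in the plastic pairs, and the part of this in the differences was not tested.

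**Figure D3:**
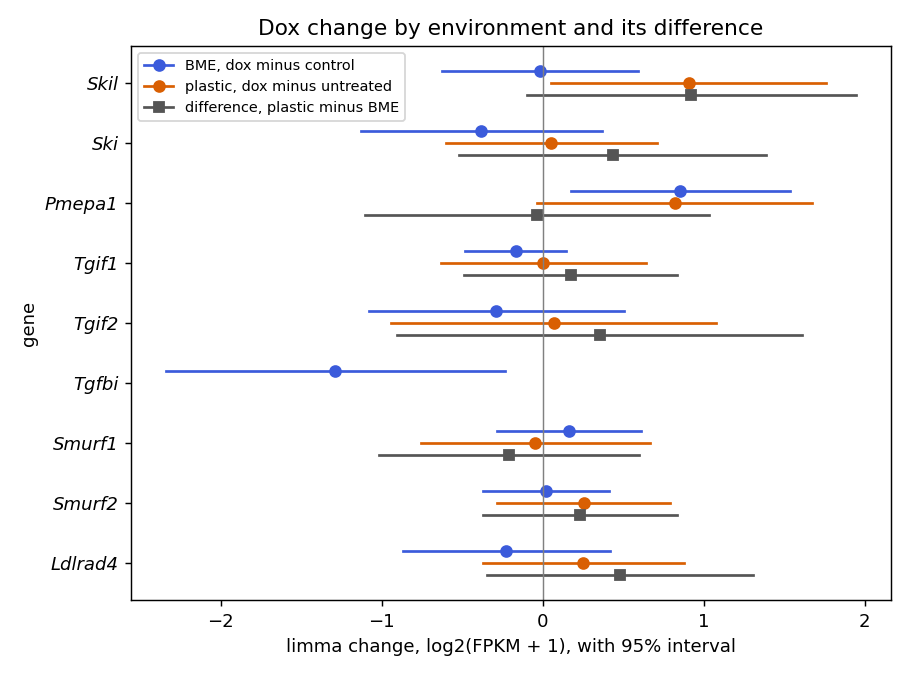
The limma change with dox in log2(FPKM + 1) and its 95% interval for the 9 genes in BME (blue), on plastic (orange) and for the difference, plastic minus BME (grey). Only the intervals of Pmepa1 and Tgfbi in BME and of Skil on plastic leave out 0, without adjustment over genes, and Tgfbi was not tested on plastic.

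Other genes known to respond to TGFβ were taken from a list of 30, of which 25 were tested in each environment. In limma 4 of 25 (Angptl4, Id1, Smad7 and Tgfb1) were higher in BME at an unadjusted p under 0.05 (background 2.62%) and 0 lower (background 1.47%). On plastic 8 were higher (background 4.56%), Angptl4, Id1 and Smad7 among them, and 3 (Gadd45b, Cdkn2b and Tsc22d1) were lower (background 3.73%), with 0 called in either environment. The median limma change was 0.13 in both environments. Angptl4, a secreted inhibitor of lipoprotein lipase, went from 5.80 to 50.3 FPKM and from 4.41 to 49.6 FPKM in BME lines 700 and 889. Its limma change was 2.55 in BME (SE 0.64, adjusted p 0.959) and 2.79 on plastic (SE 0.38, adjusted p 0.148). It was also higher in the mock pair, at 24.6 FPKM against 5.06. Id1, an inhibitor of differentiation that responds mainly to the BMP branch, went from 12 to 104 and from 13.4 to 47.8 FPKM in the same BME lines, but from 8.94 to 6.24 in the mock pair. The 2 genes, of like change with dox, therefore differed in the mock pair, 2.08 for Angptl4 and -0.46 for Id1.

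Smad7, the inhibitory SMAD, changed by 1.16 on plastic (SE 0.37, limma adjusted p 0.512) and by 0.52 and 0.51 in the BME pairs, with 3.86 FPKM in both libraries of the mock pair. Its difference between environments was 0.75 (95% interval -0.20 to 1.69). Cdkn1a, the p21 cell cycle inhibitor, was higher in BME by 2.13 and 1.52 in lines 700 and 889, and by 0.86 in the mock pair. On plastic it was higher by 1.33, 1.83 and 2.48 in lines 560, 700 and 889. Lower values were found for Gadd45b, a stress-response gene, with pair changes of -0.79 and -0.84 in BME, -0.78 in the mock pair and -1.08 ± 0.08 (SD, n = 3 pairs) on plastic. Sox4, a transcription factor, had a mean pair change of -0.83 ± 0.47 (SD, n = 2 pairs) in BME, -0.83 in the mock pair and changes of -0.55, -0.34 and -0.29 on plastic, and Thbs1, a matrix glycoprotein, had -0.86 ± 0.38 (SD, n = 2 pairs) and -0.17 in the mock pair. The Thbs1 changes on plastic were 1.14, -0.0021 and -1.14 in lines 560, 700 and 889. On plastic the cell cycle inhibitor Cdkn2b had a mean pair change of -0.82 ± 0.33 and Tsc22d1 of -0.74 ± 0.29 (SD, n = 3 pairs each). In BME the dox pair changes were -0.46 and -0.13 for Cdkn2b, and 0.43 and 0.10 for Tsc22d1, which was also higher in the mock pair (0.16). As for Tgfbi on this log2 scale, the mock change of Sox4 lay between those of its BME dox pairs, and that of Gadd45b was close to both of its own.

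**Figure D4:**
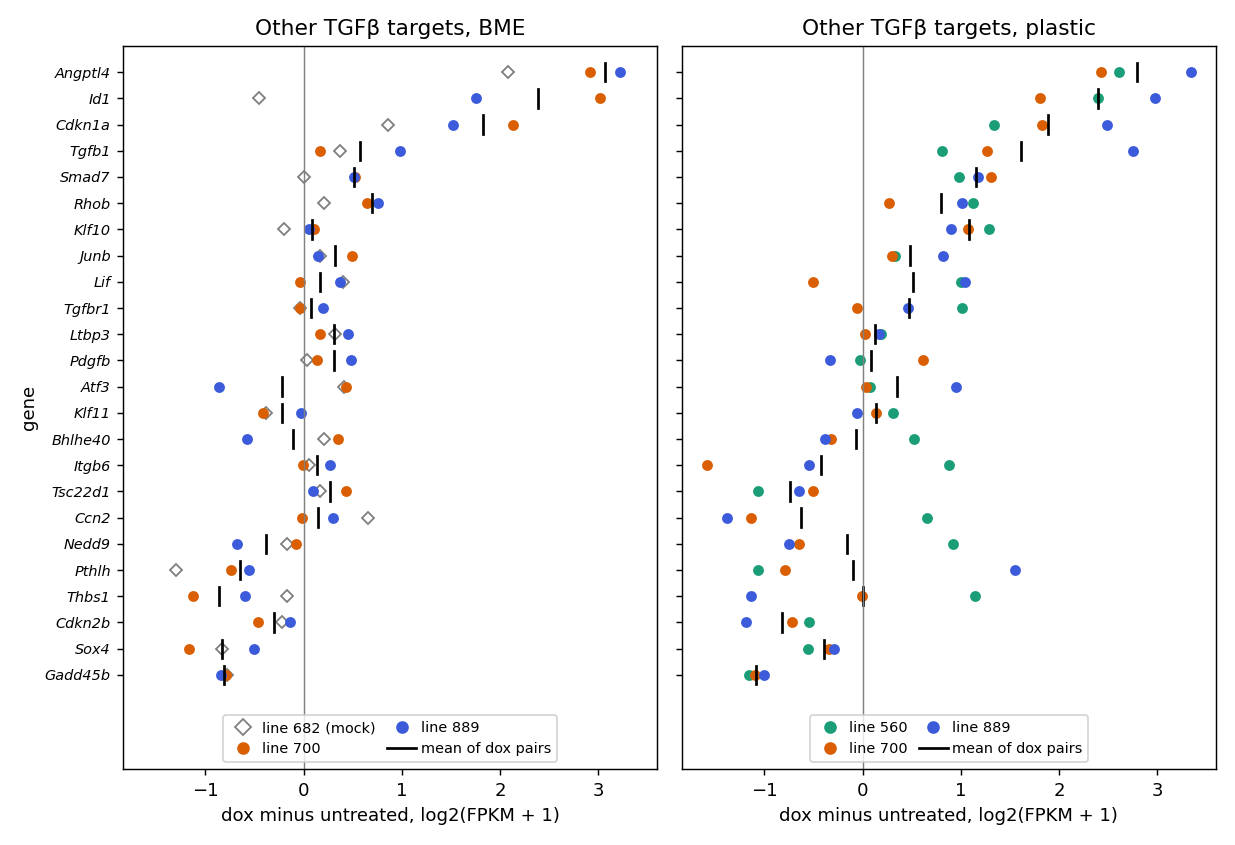
Change within each same-line pair, treated minus untreated, in log2(FPKM + 1), for other TGFβ targets that were tested, in BME (left) and on plastic (right), with symbols as in the plot of the 9 genes. Angptl4 and Gadd45b in the mock pair (2.08 and -0.78) lie on the side of the dox pairs, whereas Id1 (-0.46) lies on the other.

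The proteins that work with SKI, TGIF and the SMURFs were taken from a list of 20 corepressor subunits, ubiquitin ligases and deubiquitinases, all tested in each environment. At an unadjusted p under 0.05, 0 of 20 were higher or lower in limma in BME (background 2.62% higher and 1.47% lower) and 0 of 20 on plastic (background 4.56% and 3.73%), which at these shares does not set the list apart. The median change was -0.06 and 0.02. The largest mean pair changes in BME were those of the ligases Wwp1, at 0.39 ± 0.11 (SD, n = 2 pairs), and Stub1, at 0.22 ± 0.02, and of the deacetylase Hdac1, at 0.22 ± 0.05. In the mock pair Wwp1 changed by 0.47, Stub1 by 0.05 and Hdac1 by 0.06. At the lower end were Nedd4l at -0.29 ± 0.31, Sin3a at -0.17 ± 0.04 and Axin1 at -0.16 ± 0.01, with mock changes of 0.01, 0.15 and -0.03. On plastic Rnf111, the ligase that degrades SKI and SKIL, was at 0.52 ± 0.81 (SD, n = 3 pairs), Wwp1 at 0.39 ± 0.76 and Trim33 at 0.38 ± 0.93, while Nedd4l was at -0.49 ± 0.53 and Usp11 at -0.30 ± 0.44. Their spread over lines was larger than the change. The higher means rested on line 560, whose changes were 1.45 for Rnf111, 1.25 for Wwp1 and 1.45 for Trim33, against 0.17 and -0.05, 0.10 and -0.19, and -0.08 and -0.23 in lines 700 and 889. Among the 8 SMAD genes, 7 were tested. Smad4 and Smad7 were higher in limma at an unadjusted p under 0.05 in both environments (background 2.62% in BME and 4.56% on plastic). Smad4 is the induced gene itself, so its being higher was set by the design. Smad1 (-0.36) and Smad5 (-0.58), which carry BMP signals, were lower in BME in limma (background 1.47%, adjusted p 0.959 each). On plastic 0 were lower (background 3.73%). Smad2 and Smad3, which carry TGFβ signals, were in neither count. Mean pair changes on plastic were 0.23 ± 0.26 for Smad2, 0.07 ± 0.66 for Smad3, 0.22 ± 0.47 for Smad5 and 0.85 ± 0.66 for the inhibitory Smad6 (SD, n = 3 pairs). For Smad2 line 560 held 0.51, against 0.03 and 0.13 in lines 700 and 889, and for Smad5 0.73, against 0.11 and -0.19. In BME they were -0.03 ± 0.14 for Smad3 and 0.28 ± 0.45 for Smad6 (SD, n = 2 pairs).

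To find genes of like pattern, changes over the 6 same-line pairs were correlated across 7162 genes, which is a description, since pairs share lines and the mock pair is among them. The genes most like Skil were Irgm2 (Pearson r = 0.997 over 6 pairs), Prdm1 (r = 0.990) and Lrp4 (r = 0.989). Each had its highest change in plastic line 560, as did Skil. The Irgm2 change was 1.41 in plastic line 560, where that of Skil was 1.40, and -0.46 in BME line 889, where that of Skil was -0.21, whereas Prdm1 had a negative change in 5 of 6 pairs. Those most like Pmepa1 were Pilrb1 (r = 0.982), Zfpm1 (r = 0.972) and Nbl1 (r = 0.968). Nbl1, a secreted BMP antagonist, had changes of 1.60 in BME line 889, 1.95 in plastic line 700 and 1.42 in plastic line 889, and at most 0.15 in the other 3 pairs.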

How the data were processed

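RNA-Seq of 12 organoid libraries was analysed from the processed files. Reads had been quantified by the authors in kallisto and tested in DESeq2, and the submitters' processing notes name the mm9 build, while versions and strand are not given in the sources used here. The deposited FPKM values form a table for BME and another for plastic, which the authors normalized separately. The authors' comparison tables, which hold a mean, a log2 fold change with its error, a test statistic and p-values, were not used. Groups came from the sample labels.

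Genes with a mean of at least 0.5 FPKM (12996 in BME, 12333 on plastic) were tested as log2(FPKM + 1) with limma 3.58.1 in R 4.3.3 (lmFit, eBayes with trend, two-sided), with no block, since none is described in the methods. Benjamini-Hochberg adjustment ran over all genes tested. Calls needed an adjusted p below 0.05 and a change above 1 in size. An adjusted p printed as 1.00 is rounded. The step was tested on simulated data. Depths are approximate, since only 65.5% to 68.4% of low values came out as whole reads within 0.05 reads. The labels give no separate cultures within a line, so p-values measure the spread between these libraries.

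Untreated and dox libraries of a line come from the same organoid line, and deviations from the arm means correlated at 0.744 in BME and at 0.461, 0.612 and 0.247 in lines 560, 700 and 889 on plastic, so lines pair the libraries. The 9 genes and the gene lists were chosen with earlier results of these data known. Beside the 9 genes, the text names from each list the 3 genes with the largest and the 3 with the smallest mean pair change per environment, Smad4, genes at an unadjusted p under 0.05 where 5 or fewer, chosen after their values were seen, and the 3 genes most like Skil and Pmepa1. Like genes were sought among those whose change had an SD of at least 0.3 over pairs. Some genes of the lists count in their totals but are not reported here by name. Alternatives were a pseudocount of 0.1, no filter, the line as a replicate block, median-centred libraries, lines 700 and 889 alone, a minimum pair change of 0.3 and leaving out each library.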

Additional observations from a re-analysis of the deposited data

Results flagged for a closer look

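Skil and Ldlrad4 were singled out because every BME dox pair was lower and every plastic dox pair higher. This pattern was met by 2.61% of all genes tested in both tables, and the BME Skil change in line 700 was only -0.015. The tests that follow use the values by which the genes were chosen, so their p-values lend no separate support. The limma difference of the dox change, plastic minus BME, was 0.92 for Skil (unadjusted p 0.0717) and 0.48 for Ldlrad4 (unadjusted p 0.228), and neither passed. With the line as a replicate block the Skil difference was 1.02 (limma unadjusted p 0.0125, adjusted p 0.877). Each of the 9 genes was also checked for a library set apart from the other 3 among the 4 BME control libraries, and none passed the critical value of Dixon's test.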

How the results depend on the processing

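None of the 9 genes was called under any alternative run. Counts over all genes moved. In BME the 3 calls were 1 with a pseudocount of 0.1, 0 with the line as a replicate block and 0 to 37 when 1 library was left out, 37 without the dox library of line 700. On plastic the 4 calls were 10 with a pseudocount of 0.1, 0 with no filter, 7 with the replicate block, and 0 to 55 when 1 library was left out, 55 without the dox library of line 700, 2 without that of line 889 and 0 without any other. For the difference between environments, 0 calls became 5 with no filter and stayed at 0 when any 1 library was left out. At a minimum of 0.3 in place of 0.5, 1 of the genes, Skil, was higher in all 3 plastic pairs. Signs turned for Smurf2 in BME (-0.10) and the Pmepa1 difference (0.11) with the replicate block, for Tgif1 on plastic with median-centred libraries (-0.036), and for the Ski (-0.015) and Pmepa1 (0.38) differences over lines 700 and 889 alone. The block changed no other call or sign for the 9 genes. Its effect on unadjusted counts is given beside them for the 9 genes, but not for the other lists. Leaving out 1 library gave ranges on both sides of 0 in BME for Skil (-0.36 to 0.32), Smurf1 (-0.036 to 0.36), Smurf2 (-0.12 to 0.16) and Ldlrad4 (-0.46 to 0.0073), on plastic for Ski (-0.14 to 0.28), Tgif1 (-0.13 to 0.25), Tgif2 (-0.31 to 0.37) and Smurf1 (-0.26 to 0.14), and for the Pmepa1 (-0.24 to 0.34) and Tgif2 (-0.019 to 0.66) differences. The causes were not tested. Pmepa1 stayed at 0.66 to 1.05 in BME and 0.62 to 1.20 on plastic, Tgfbi in BME at -1.59 to -0.98 and Skil on plastic at 0.54 to 1.11, while the Skil difference ran from 0.56 to 1.26 and the Ldlrad4 difference from 0.25 to 0.71. Depth limits the low values of Tgfbi and Tgif2 on plastic.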
